A study of Mus musculus with 12 samples.

Results

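Replication-dependent histone genes encode the linker histone H1 and the core histones H2A, H2B, H3 and H4 that package newly copied DNA. They were taken as the rows of the deposited gene table whose symbol starts with Hist1h, Hist2h, Hist3h or Hist4h and that had a value above 0 in at least 20 cells. All 62 such symbols, of 20090 genes in the table, met the rule, so none lay outside it. The member seen in the fewest cells was Hist1h2ao, with a value above 0 in 88 cells, and the member seen in the most was Hist1h2bc, in 11199 cells. The members comprised 5 H1, 16 H2A, 16 H2B, 12 H3 and 13 H4 genes. The study profiled the mouse small intestine along its length by droplet-based single-cell RNA sequencing from the 3′ end of transcripts. Its 8 samples of the diet group were analysed here, and the labels name no diet for any of them. They came from adult mice of the Lgr5DTR-GFP strain, in which a diphtheria toxin receptor and a green fluorescent protein are placed at Lgr5, a stem cell gene, and every diet sample carries this allele. Cells without the leukocyte marker CD45 and with the epithelial marker EpCAM were sorted from intestines cut into 30 pieces of equal length, each piece tagged by MULTI-seq, a lipid-anchored barcode oligonucleotide. The 2 total epithelium and 2 progenitor samples were not analysed here.

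The intestinal epithelium is renewed from Lgr5-expressing stem cells at the base of the crypts, whose daughters divide as transit amplifying cells and then stop dividing as absorptive enterocytes or secretory goblet, Paneth, enteroendocrine and tuft cells. DNA copying in S phase needs new histones, and replication-dependent histone mRNAs accumulate in S phase and are destroyed when it ends. Most of these mRNAs have no introns and no poly(A) tail. They end instead in a short stem-loop that is bound by the stem-loop binding protein Slbp. Some histone genes can also give polyadenylated transcripts, which have been described in cells that no longer divide. Capture from the 3′ end primes on runs of adenines, so the values describe the captured part of these transcripts, and how that part relates to the whole was not tested.

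The stem-loop and the promoter are shown because they are what these genes share in sequence. In the GENCODE M21 transcripts (build GRCm38, the assembly also called mm10), 44 of 62 members (71%) held a stem-loop, against 123 of 55341 gene symbols (0.222%) with a match to the same pattern. The pattern has 6 bases of stem, 4 of loop and 6 of stem, with changes allowed in the pairs and the loop. The forms carried by more than 1 member are given below as DNA, 5′ to 3′, with the stem in capitals.
H1, H2A, H2B and H3 form, 25 members: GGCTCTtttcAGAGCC
H4 form, 7 members: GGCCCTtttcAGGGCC
H2B and H3 form, 5 members: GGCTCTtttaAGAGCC
H4 form, 2 members: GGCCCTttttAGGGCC
H4 form, 2 members: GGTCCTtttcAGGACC
The first form was carried by Hist1h2ap, Hist1h2ae, Hist1h1e and Hist1h1c. The second was carried by Hist1h4d. No match was found for the 11 members annotated without an end beyond the coding region. Nor was it found for 7 others: Hist1h1a, Hist1h1b, Hist1h2bc, Hist1h2br, Hist2h2ab, Hist2h2be and Hist2h3b. This says only that these letters are not in the annotated transcripts. By place, 50 members lay on chromosome 13, 9 on chromosome 3, 2 on chromosome 11 and 1 on chromosome 6. Of the 4299 ppm (parts per 1000000) that the members took of all values in G2/M-like progenitor-like cells, a group defined below, the chromosome 13 members gave 4002 ppm and the chromosome 3 members 262.6 ppm.

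Promoter windows of 300 bases, from 250 before to 50 after the start, were matched by start site in the RefSeq promoter table (GRCm38.p6) for 56 of 62 members. The members without a match were Hist2h4, Hist2h2be, Hist1h3a, Hist1h3f, Hist1h1d and Hist1h2bc. The windows of 4 members are given 5′ to 3′ with the motifs that were searched in capitals, on either strand. Hist1h2ap and Hist1h4d were among the 5 highest members in dividing cells. Hist1h1b and Hist1h1c encode H1 subtypes, and among the 5 H1 genes they had the largest and the smallest difference between G2/M-like cells and cells in neither stage.
Hist1h2ap, chr13:21833426-21833725, minus strand: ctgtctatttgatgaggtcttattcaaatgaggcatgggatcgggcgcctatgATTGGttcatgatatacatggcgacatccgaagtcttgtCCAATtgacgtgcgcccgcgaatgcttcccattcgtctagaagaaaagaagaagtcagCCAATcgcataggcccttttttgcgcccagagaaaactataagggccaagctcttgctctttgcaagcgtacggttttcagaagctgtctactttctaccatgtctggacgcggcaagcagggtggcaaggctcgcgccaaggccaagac
Hist1h1b, chr13:21780576-21780875, minus strand: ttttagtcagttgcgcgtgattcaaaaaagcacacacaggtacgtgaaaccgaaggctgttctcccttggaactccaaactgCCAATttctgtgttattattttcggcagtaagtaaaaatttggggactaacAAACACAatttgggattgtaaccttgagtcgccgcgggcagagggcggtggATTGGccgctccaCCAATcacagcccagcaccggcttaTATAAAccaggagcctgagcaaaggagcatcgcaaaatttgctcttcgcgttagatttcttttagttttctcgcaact
Hist1h1c, chr13:23738557-23738856, plus strand: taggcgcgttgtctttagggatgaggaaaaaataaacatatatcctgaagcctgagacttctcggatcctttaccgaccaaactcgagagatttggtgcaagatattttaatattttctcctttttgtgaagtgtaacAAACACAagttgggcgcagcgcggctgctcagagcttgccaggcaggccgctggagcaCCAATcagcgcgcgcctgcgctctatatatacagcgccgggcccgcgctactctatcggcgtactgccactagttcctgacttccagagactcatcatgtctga
Hist1h4d, chr13:23581318-23581617, plus strand: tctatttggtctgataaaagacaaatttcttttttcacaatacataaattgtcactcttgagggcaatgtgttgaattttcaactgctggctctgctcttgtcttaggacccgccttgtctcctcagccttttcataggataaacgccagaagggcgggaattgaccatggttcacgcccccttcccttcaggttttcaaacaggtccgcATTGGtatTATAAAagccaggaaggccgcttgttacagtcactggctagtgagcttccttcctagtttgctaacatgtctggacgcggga
The search was for 4 motifs, none of which contains another. The box named for the letters CCAAT was in 47 of 56 member windows (83.9%), against 37.4% of all 32851 windows in the table. It was in all windows of H1, H2A, H2B and H3 genes and in 3 of 12 of H4 genes. The letters TATAAA, a core promoter element, were in 32 of 56 (57.1%, against 13.6% of all windows). The octamer known from H2B promoters, ATTTGCAT, was in 11 of 56 (19.6%, against 1.74%), of which 6 were H2A and 5 were H2B genes. A box known from H1 promoters, with the letters AAACACA, was in 5 of 56 (8.93%, against 7.18%), 3 of them among the 4 H1 windows. Hist1h1b and Hist1h1c both held the H1 box and the CCAAT box, and the TATA box letters were found in the window of Hist1h1b and not in that of Hist1h1c. A match describes letters, not a bound factor.

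The table held 27881 cells with a median of 2219 detected genes. Cell barcodes ended in 1 of 8 numbers that could not be matched to the sample titles, so the table counts as 1 sample, no test was possible, and the 8 barcode sets (2286 to 5320 cells each) are given as ranges. Whether the sets are separate animals is stated in none of the labels, so their spread may be technical. Between sets, 80 pairs of barcodes were shared. Levels are given in ppm of the summed values of a group of cells and were not divided by gene length. Cells were not scaled before summing, so cells with a higher total (2764 to 9739) weigh more. Clusters of cells were made without the members and named from marker genes. The progenitor-like name came from stem cell markers or from transit amplifying markers, which include cell cycle genes such as Mki67 and Pcna. Clusters 6 and 11 (1632 and 1075 cells) took it from the latter. Progenitor-like cells (6424) had 5574 ppm of stem cell markers against 265.5 ppm in enterocyte-like cells (4231), and 1223 against 62704 ppm of enterocyte markers. Goblet-like (1160), tuft-like (397) and enteroendocrine-like cells (374) were named in the same way, and 15241 cells stayed unnamed. Stages were read from scores of 38 S phase and 51 G2/M genes, none of them a histone gene: 2478 progenitor-like cells were S-like, 2816 G2/M-like and 1130 neither. A cell took the stage of its higher score if that score was positive, so G2/M-like cells can also have a positive S score. Of the progenitor-like cells, 2386 (37.1%) lay within 0.05 of a boundary between stages. The stages are thus ranges of a score and not separate types.

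The summed level of the 62 members was 577 ppm in progenitor-like cells in neither stage (lowest, median and highest barcode set 469, 573 and 628 ppm). It was 1258 ppm in S-like cells (919, 1233 and 1867 ppm) and 4299 ppm in G2/M-like cells (3628, 3889 and 5348 ppm). The 3 ranges did not overlap. The sum was 2.18-fold higher in S-like cells and 7.45-fold higher in G2/M-like cells than in cells of neither stage. Median detected genes were close, at 2960, 2950 and 2849 in S-like, G2/M-like and neither cells. The stem cell marker sum moved the other way, at 5985, 3715 and 9378 ppm in the same order, and its part in the differences was not tested. Markers of red blood, myeloid, T, B, stromal and endothelial cells each summed to at most 17.4 ppm in these cells.

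A gene was called where the mean of both groups was at least 10 ppm, the log2 difference (pseudocount 1 ppm) was at least 1 in size and every barcode set with at least 20 cells in both groups had the same direction. The share of all genes called is given beside each count, over the genes with a mean of at least 10 ppm. Of the 62 members, 10 were called higher in S-like cells than in cells of neither stage, against 2.49% of all genes tested (238 of 9545), and 1 was called lower, against 0.44%. The 10 became 5 with only every other scoring gene (against 1.84% of all genes) and 25 without the minimum of 10 ppm (against 1.75%). In G2/M-like cells 33 were called higher than in cells of neither stage, against 4.81% of all genes, and 0 lower, against 3.23%. Between the stages, 34 were higher in G2/M-like than in S-like cells, against 2.08%, and 0 lower, against 0.833%. Over all cells in place of progenitor-like cells the 34 became 19, against 1.11%. The median log2 difference over the members was 1.02, 2.47 and 1.51 in these comparisons, and that over all genes was -0.00, -0.03 and -0.03. Only 19, 36 and 39 members had the mean level of 10 ppm that a call needs. In the first comparison some reached it through the S-like cells alone, as Hist1h1a did. In the others it was often reached through the G2/M-like cells alone.

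Linker histones bind DNA between nucleosomes. Hist1h1b, which encodes the subtype also called H1.5, was at 14.5 ppm in cells of neither stage, 131 ppm in S-like cells and 491 ppm in G2/M-like cells. Over the barcode sets, G2/M-like cells ranged from 356.5 to 632 ppm and cells of neither stage from 5.26 to 25.4 ppm, without overlap. Its log2 difference of 4.99 between these groups was the largest of the 62 members. Hist1h1a was at 2.13, 18.2 and 44.9 ppm in neither, S-like and G2/M-like cells. Hist1h1e had the highest H1 level in cells of neither stage, 83.7 ppm, with 117 ppm in S-like and 368 ppm in G2/M-like cells, a log2 difference of 2.12 in the last. Hist1h1d was at 15.2, 27.9 and 81.4 ppm in the same order. Hist1h1c, also called H1.2, was at 34.2, 29.2 and 83.4 ppm, and was called higher only in G2/M-like cells (log2 difference 1.26). The 5 H1 genes were all called higher in G2/M-like cells (all genes 4.81%), but Hist1h1e, Hist1h1d and Hist1h1c were not called between S-like cells and neither.

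H2A genes had the largest family difference, with a summed level 15-fold higher in G2/M-like cells and 4.12-fold higher in S-like cells than in neither. Hist1h2ap was the highest member in both stages, at 21.0 ppm in cells of neither stage, 153 ppm in S-like and 568 ppm in G2/M-like cells. Hist1h2ae was at 22.3, 134 and 494 ppm, with a range over sets of 10.9 to 33.6 ppm in neither and 318 to 757 ppm in G2/M-like cells. Both were higher in G2/M-like cells in every barcode set. Hist2h2ac from the chromosome 3 cluster was at 16.8, 47.0 and 157 ppm, and Hist1h2ab at 5.68, 22.2 and 106 ppm. Of 16 H2A genes, 9 were called higher in G2/M-like cells and 4 in S-like cells (all genes 4.81% and 2.49%). Hist3h2a from chromosome 11 was at 13.5, 6.20 and 16.9 ppm in neither, S-like and G2/M-like cells. Its log2 difference of -1.01 in S-like cells was not called, since 1 set had a difference of 0.04 and the mean of both groups was under 10 ppm. It was called higher in G2/M-like than in S-like cells, with a log2 difference of 1.31.

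H2B genes differed least as a sum, 1.02-fold in S-like and 2.89-fold in G2/M-like cells over neither, although their median log2 differences of 1.22 and 2.85 were like those of other families. Hist1h2bc was 70.7% of the H2B sum in cells of neither stage, 34.4% in S-like and 18.9% in G2/M-like cells. It was at 115 ppm in cells of neither stage (94.3 to 137 ppm over sets), 57.1 ppm in S-like cells (47.9 to 73.4 ppm) and 89.2 ppm in G2/M-like cells (73.5 to 140 ppm). The S-like and neither ranges did not overlap, and Hist1h2bc was the member called lower in S-like cells (log2 difference -1.002, from -1.31 to -0.74 over sets). That value lies at the threshold of 1. Among the other H2B genes Hist1h2bj was at 2.98, 17.1 and 56.6 ppm in neither, S-like and G2/M-like cells, and Hist1h2be at 19.5, 24.8 and 68.6 ppm. Of 16 H2B genes, 9 were called higher in G2/M-like cells (all genes 4.81%). Without Hist1h2bc the sum of the remaining members was 9.12-fold higher in G2/M-like cells and 2.6-fold higher in S-like cells than in neither.

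H3 genes summed to 10.7-fold and H4 genes to 6.08-fold more in G2/M-like cells than in neither. Hist1h3c was the highest H3 gene, at 7.11 ppm in neither, 37.8 ppm in S-like and 172 ppm in G2/M-like cells, and Hist1h3e followed with 11.9, 25.8 and 102 ppm. Hist1h4d was the highest H4 gene, at 40.9, 87.7 and 374 ppm, with sets between 26.1 and 63.1 ppm in neither and between 297 and 477 ppm in G2/M-like cells. Hist1h4c, Hist1h4h and Hist1h4i were at 94.1, 91.5 and 39.1 ppm in G2/M-like cells and at 21.0, 17.9 and 13.6 ppm in neither. Those 3 were called higher in G2/M-like and not in S-like cells. Of 12 H3 and 13 H4 genes, 5 of each were called higher in G2/M-like cells (all genes 4.81%). Hist2h3c2 and Hist2h3c1 stayed under 3 ppm in all 3 groups.

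The other called members were each under 50 ppm in G2/M-like cells. Among H2A genes, Hist1h2ak was at 3.27 ppm in neither and 43.7 ppm in G2/M-like cells, Hist1h2an at 1.85 and 43.3 ppm, and Hist1h2af at 1.28 and 42.0 ppm. Hist1h2ai was at 3.27 and 36.2 ppm and Hist2h2aa1 at 4.83 and 28.5 ppm, and all 5 were called higher in G2/M-like cells. Among H2B genes, Hist2h2bb was at 2.13 ppm in neither and 40.8 ppm in G2/M-like cells, Hist1h2bm at 2.84 and 38.5 ppm, Hist1h2bb at 1.28 and 34.0 ppm, and Hist1h2bn at 1.56 and 29.3 ppm. Hist1h2bh, Hist1h2br and Hist1h2bg were at 22.4, 19.9 and 18.6 ppm in G2/M-like cells. The H3 genes Hist1h3f, Hist1h3i and Hist1h3b were at 46.9, 40.2 and 26.7 ppm there, and the H4 gene Hist1h4a at 19.1 ppm. Hist1h2ac, Hist1h2ag and Hist1h4n were called higher in G2/M-like than in S-like cells and were not called against neither, as was the case for Hist3h2a. Hist1h2ac was also called between classes, at 18.4 ppm in progenitor-like and 4.20 ppm in enterocyte-like cells. In all, 38 members were called in at least 1 of the comparisons of stages or of progenitor-like with enterocyte-like cells, in either direction. The share of all genes was 43.5%, over those with a mean of at least 10 ppm in at least 1 of them, of which 39 were members. The other 24 were at most at 17.15 ppm in G2/M-like cells, the highest of them being Hist1h3a.

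A few genes made much of the sum. The 5 highest members gave 49.4% of it in S-like cells and 53.4% in G2/M-like cells, and were Hist1h2ap, Hist1h2ae, Hist1h1b, Hist1h1e and Hist1h4d in both. In cells of neither stage Hist1h2bc led with 20% of the sum, followed by Hist1h1e with 14.5%. The heatmap by cell group shows all 62 members.

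**Figure D1:**
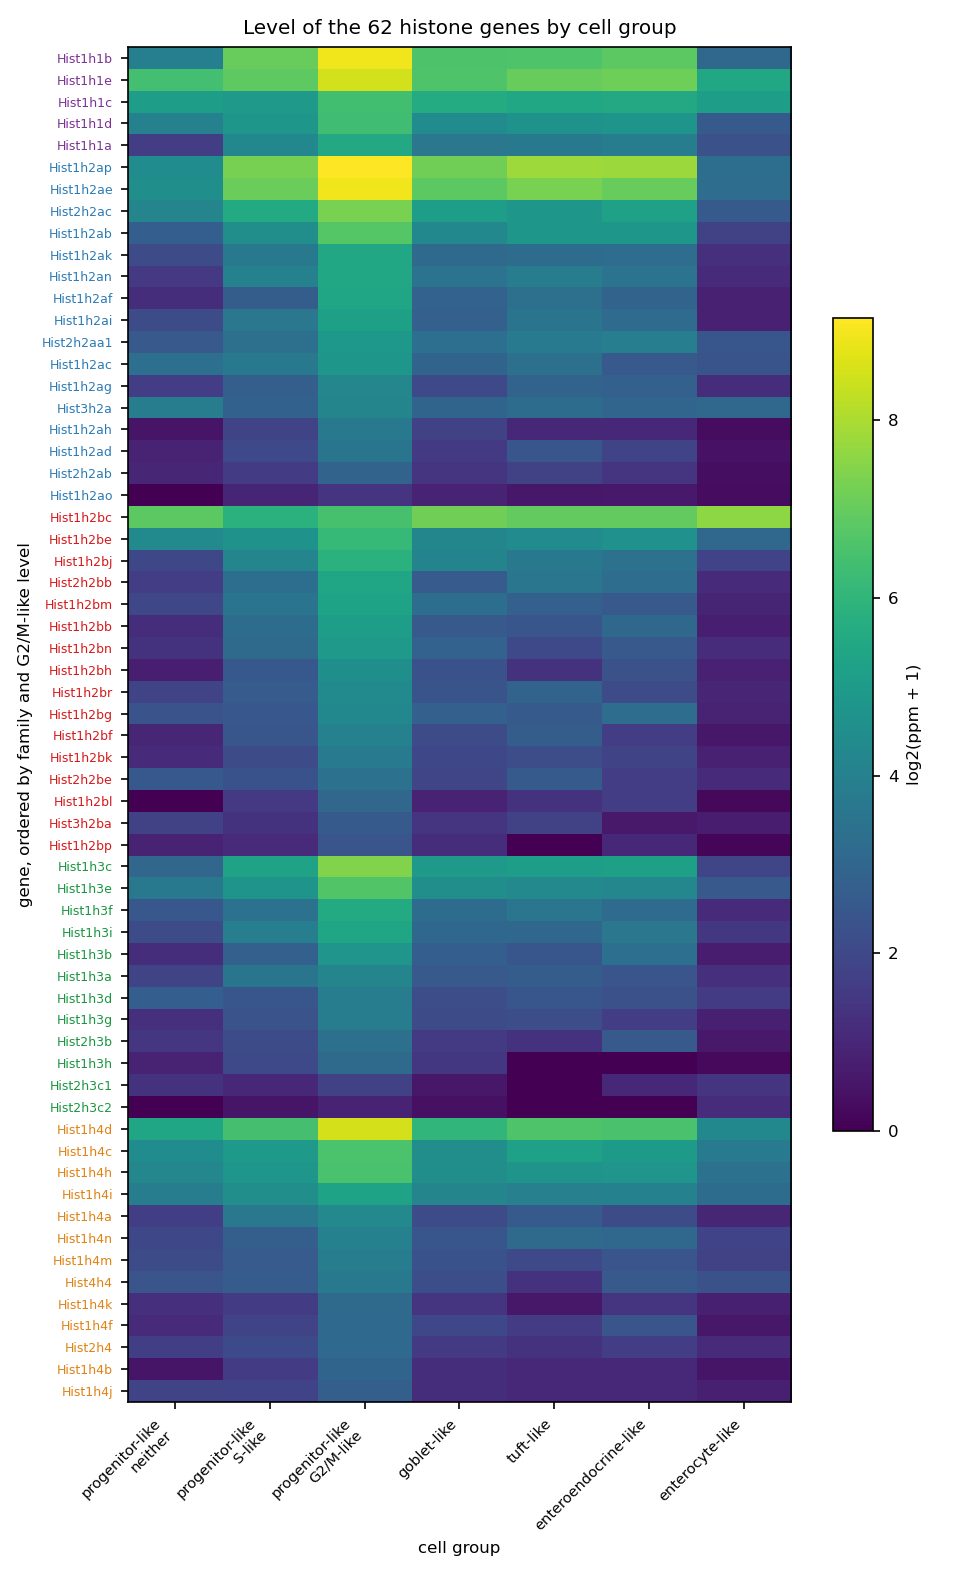
Level of each of the 62 members as log2(ppm + 1), in 7 groups of cells (columns), with genes (rows) ordered by family, named in the colour of the family, and by their level in G2/M-like cells. Hist1h2ap, Hist1h1b and Hist1h2ae are brightest in G2/M-like cells (568, 491 and 494 ppm), while Hist1h2bc is brightest in enterocyte-like cells (190.5 ppm).

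The 5294 S-like and G2/M-like progenitor-like cells were then ordered by the angle of their S and G2/M scores and split into 10 bins of equal size, from the S end to the G2/M end. The summed level was 479, 408 and 491 ppm in bins 1 to 3, below the 577 ppm of cells in neither stage. It was 1570 ppm in bin 4, 4508 ppm in bin 5, 5719 ppm in bin 6 and 6066 ppm in bin 7. It then fell back to 4850, 3250 and 1273 ppm in bins 8 to 10. The median S score was 0.053, 0.184 and 0.331 in bins 1 to 3, so bin 1 held cells near the boundary of the S-like stage. Bins 2 and 3 held cells with a higher S score and a low histone sum. In bins 4 to 7 the median S score was 0.43, 0.40, 0.26 and 0.12, and the median G2/M score 0.08, 0.33, 0.56 and 0.68. Both medians were thus positive where the histone sum rose and was highest. In 5 of the 7 sets with enough cells in all bins the sum was highest in bin 7, and in the others in bin 6.

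Cells were also counted singly against a threshold of 1588 ppm, the 99th percentile of the summed level over enterocyte-like cells in neither stage. The share of cells above it was 0.755%, 0.567% and 2.45% in bins 1 to 3, 30.4% in bin 4, 76.8% in bin 5 and 85.1% in bin 6. It was 81.9%, 71.5%, 48.6% and 20.8% in bins 7 to 10. Median detected genes lay between 2861 and 3044 in the 10 bins.

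By member, the highest bin was the sixth for 20 genes, the seventh for 34, the eighth for 4, the ninth for 2 and the tenth for 2. Each of the 5 family sums was highest in bin 7. Hist1h1b and Hist1h2ae were highest in bin 6, at 763 and 718 ppm, and Hist1h2ap, Hist1h4d and Hist1h1e in bin 7, at 816, 518 and 520 ppm. Hist1h1c also was highest in bin 7, at 112 ppm, and fell to 44.1 ppm in bin 10. The 2 members highest in bin 10 were H2B genes. Hist1h2bc was at 76.3 ppm in bin 1, 50.1 ppm in bin 4 and 184 ppm in bin 10, and Hist2h2be at 3.31 ppm in bin 1 and 11.5 ppm in bin 10. Genes that did not enter the scores place these bins in the cycle. The G1/S cyclins Ccne2 and Ccne1 were highest in bins 4 and 5 (74.5 and 48.9 ppm) and Slbp in bin 5 (190 ppm). Ccnb1 and Plk1, which act in G2 and mitosis, were highest in bin 9 (201 and 144 ppm). Ccna2 also was highest in bin 9 (185 ppm), after 151 ppm in bin 7. The histone maximum thus lay between that of the G1/S cyclins and that of Ccnb1 and Plk1.

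**Figure D2:**
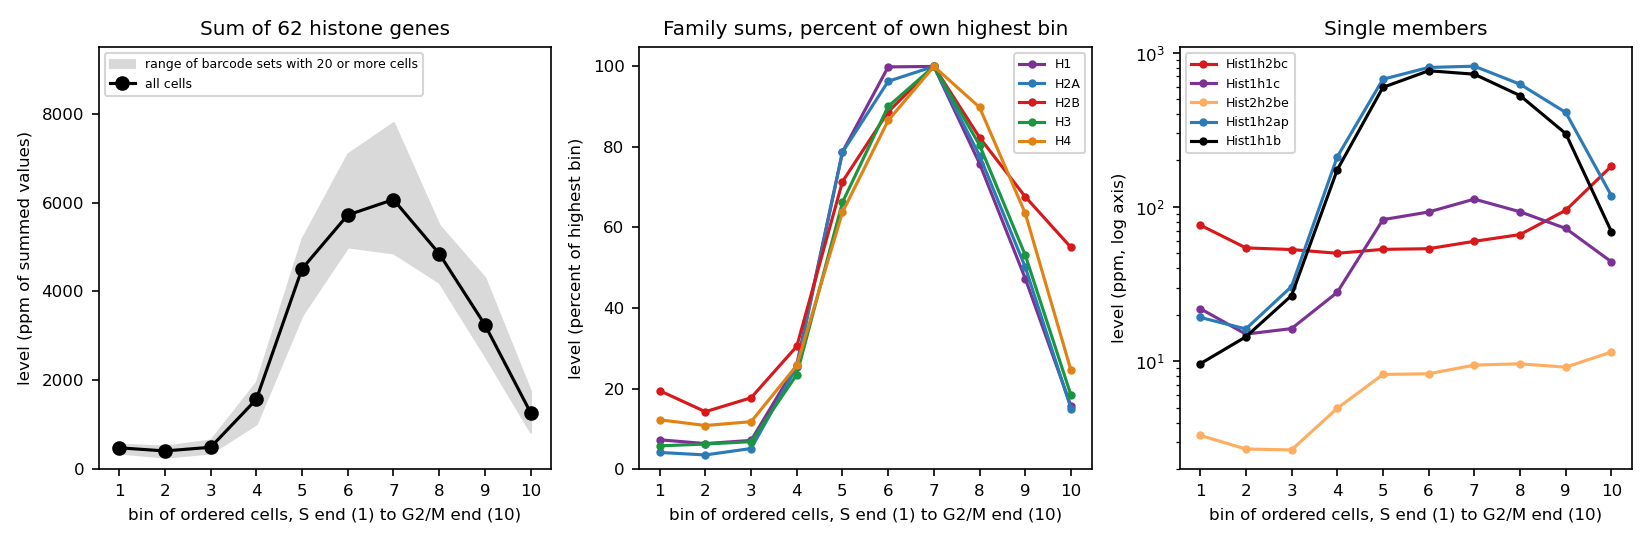
Level along the 10 bins of ordered cycling progenitor-like cells: the sum of the 62 members in ppm (left, grey band the range of barcode sets with at least 20 cells in the bin), family sums as percent of their own highest bin (middle) and 5 single members on a log axis (right). The sum is between 408 and 491 ppm in bins 1 to 3 and reaches 6066 ppm in bin 7, while Hist1h2bc is highest, at 184 ppm, in bin 10.

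The same was seen when all progenitor-like cells were split into quartiles of each score. With the highest S quartile, the sum was 337 ppm in the lowest G2/M quartile, 645 ppm in the second, 4449 ppm in the third and 7495 ppm in the highest. With the lowest S quartile, it was 559, 778, 988 and 3315 ppm in the same order. Of the 217 cells in the highest quartile of both scores, 98.6% were above the threshold, and of the 123 cells in the highest S and lowest G2/M quartile, 0 were. That count of 0 allows a share of up to 2.44%, by counting error alone. Hist1h2bc was highest, at 222.5 ppm, where the S score was in its lowest and the G2/M score in its second quartile, and lowest, at 32.1 ppm, in the highest quartile of both.

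**Figure D3:**
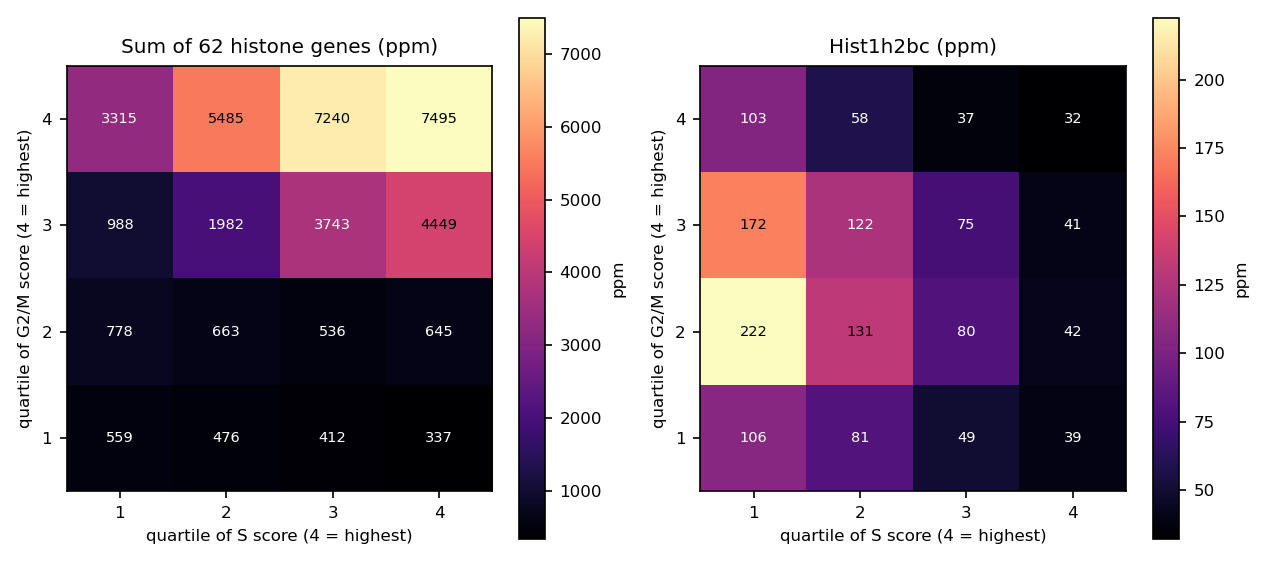
Level in ppm of the sum of the 62 members (left) and of Hist1h2bc (right) in progenitor-like cells split by quartile of the S score (horizontal axis) and of the G2/M score (vertical axis), with the value printed in each square. The sum is highest (7495 ppm) and Hist1h2bc lowest (32 ppm) where both scores are in the highest quartile.

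The next comparison asked how the members differ between dividing and differentiated lineages. Their sum was 2477 ppm in progenitor-like cells (1846, 2358 and 2900 ppm as the lowest, median and highest set) and 433 ppm in enterocyte-like cells (358.5, 434 and 561 ppm), a 5.72-fold difference with no overlap between sets. Of 62 members, 26 were called higher in progenitor-like cells, against 29.4% of all genes tested, and 1 was called lower, against 15.2%. Both shares are over genes with a mean of at least 10 ppm, which 28 members reached, many of them through the progenitor-like cells alone. Over all genes without that minimum, 13.8% were called higher, and the 26 are 41.9% of the 62. The members' median log2 difference was 2.35, against 0.36 over all genes with that mean. Without the minimum 52 members were called higher, against 22.3% of all genes. Hist1h1b, Hist1h2ap and Hist1h2ae had the largest differences, from 7.40 to 269 ppm, 8.83 to 313 ppm and 8.65 to 273 ppm, or 5.01, 5.00 and 4.83 on the log2 scale. Hist1h4d was at 18.4 ppm in enterocyte-like and 205 ppm in progenitor-like cells, and Hist1h1e at 43.1 and 221 ppm. All but 3.19% of enterocyte-like cells were in neither stage, so class and stage move together here. The progenitor-like name also rests in part on cell cycle genes, so part of this difference may come with the naming, which was not tested.

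When both classes were limited to cells in neither stage, 4 members were called higher in progenitor-like cells, against 27.2% of all genes, and 0 lower, against 15.8%. The 4 were Hist1h2be, Hist1h2ap, Hist1h2ae and Hist1h4d. The summed level was 577 ppm in progenitor-like and 422 ppm in enterocyte-like cells of neither stage, and the sets (469 to 628 and 351 to 529 ppm) overlapped. The median log2 difference over the members was 0.69, against 0.34 over all genes. Of the 62 members 13 had a mean of at least 10 ppm here. The 4 are 6.45% of the 62, against 12.7% of all genes without that minimum, and 30.8% of the 13, so the order of members and all genes depends on the denominator.

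Hist1h2bc was the member called lower in progenitor-like than in enterocyte-like cells, and the only one at 10 ppm or more in either class whose enterocyte-like level was the higher. It was at 81.3 ppm in progenitor-like cells and 190.5 ppm in enterocyte-like cells, with sets from 137 to 250 ppm and a median of 181 ppm in the latter. The log2 difference was -1.22, between -1.36 and -0.61 in the 8 sets. A value above 0 was seen in 33.4% of progenitor-like and 62.8% of enterocyte-like cells. Hist1h2bc alone was 44% of the members' sum in enterocyte-like cells, where H2B genes together were 48.6%. Without it the sum was 9.86-fold higher in progenitor-like cells. Over the 22 clusters with at least 50 cells, Hist1h2bc ranged from 47.2 ppm in cluster 8, led by Aspn and Ogn, of which 99.5% of cells were S-like or G2/M-like, to 363 ppm in cluster 5. Cluster 5 was led by Car1 and Fabp6, the latter an ileal bile acid-binding protein, and 11.4% of its cells were S-like or G2/M-like. Cluster 4, led by the purine enzymes Ada and Nt5e, had 306 ppm. Both were unnamed clusters. The 5 enterocyte-like clusters had 133 to 252 ppm. Hist1h2bc did not follow the share of S-like or G2/M-like cells in every cluster. Cluster 0, with a share of 50%, had 55.5 ppm, and cluster 6, with 99.6%, had 89.1 ppm.

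Hist1h1c did not separate the classes. It was at 53.9 ppm in progenitor-like and 33.7 ppm in enterocyte-like cells, a log2 difference of 0.66 that was not called. Its highest cluster was number 4, at 177 ppm, and its lowest the enterocyte-like cluster 15, at 17.9 ppm. Hist3h2a was at 12.2 and 7.25 ppm in progenitor-like and enterocyte-like cells, a difference of 0.67 that was not called. Both genes carry the most frequent stem-loop given above.

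**Figure D4:**
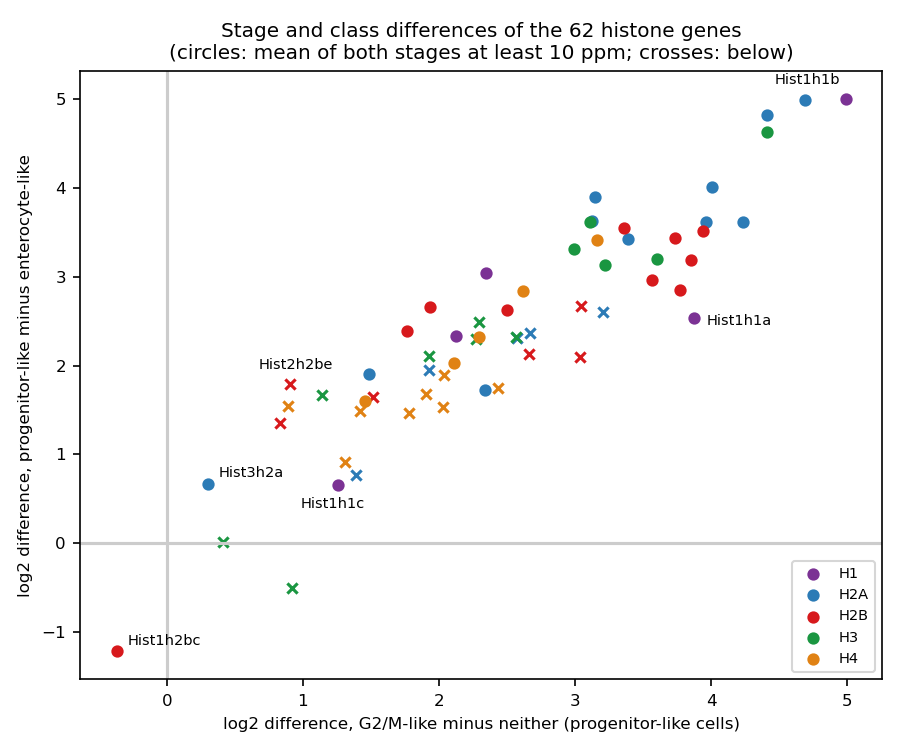
Each point is 1 of the 62 members, with its log2 difference between G2/M-like and neither progenitor-like cells on the horizontal axis and between progenitor-like and enterocyte-like cells on the vertical axis, coloured by family. Both axes use the G2/M-like cells, so the points are described and no correlation is given. Hist1h2bc lies below 0 on both axes (-0.37 and -1.22) and Hist1h1b lies farthest up and right (4.99 and 5.01).

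Sums in the secretory classes depended on the barcode sets. Goblet-like cells had 1112 ppm, but 765 of the 1160 came from set 4, the median of the 8 sets was 2020 ppm, and without set 4 the sum was 2088 ppm. Tuft-like cells had 1335 ppm, and 625 ppm without set 7. Enteroendocrine-like cells had 1325 ppm, and between 1037 and 1457 ppm when each set was left out. Against enterocyte-like cells 8 members were called higher in goblet-like cells, against 7.53% of all genes. In tuft-like cells 9 were, against 13.9%, over only 2 barcode sets. In enteroendocrine-like cells 3 were, against 11.2%, over 4 sets. In each of these comparisons 16 members had the mean of 10 ppm that the shares of all genes rest on. Over all genes without that minimum the shares were 3.16%, 5.97% and 4.86%, and the counts are 12.9%, 14.5% and 4.84% of the 62 members. Hist1h2ap was called in all 3 classes. The values varied widely between sets: goblet-like cells of set 4 had 442 ppm and those of set 2 had 2760 ppm. Tuft-like cells had 498 ppm in set 4 and 1528 ppm in set 7, and enteroendocrine-like cells 394 ppm in set 4 and 1549 ppm in set 7. Set 7 held 309 of the 397 tuft-like and 221 of the 374 enteroendocrine-like cells. Markers of other classes were present in them: Paneth markers summed to 6921 ppm in tuft-like and 6504 ppm in enteroendocrine-like cells, and enterocyte markers to 11314 and 17409 ppm, and the part of these in the sums was not tested.

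Within the secretory classes the pooled sums followed the stage, on few barcode sets. Goblet-like cells had 402 ppm in neither stage, 1460 ppm when S-like and 2364 ppm when G2/M-like. The 3 sets with at least 20 cells, not the same 3 in each stage, ranged from 390 to 442 ppm in neither, 345 to 2203 ppm in S-like and 768 to 3191 ppm in G2/M-like cells, and the lowest S-like set, set 4, was below its own 390 ppm in neither. Tuft-like cells had 559, 1173 and 1700 ppm in the same order, and enteroendocrine-like cells 491.5, 988 and 2029 ppm. In both classes set 7 was the 1 set with at least 20 S-like or G2/M-like cells. The 107 G2/M-like enterocyte-like cells had 859 ppm, against 422 ppm in those of neither stage. The 2 goblet-like clusters differed in the same sense. Cluster 13 had 441 ppm with 23.9% of its cells S-like or G2/M-like, and 760 of its 920 cells came from set 4. Cluster 20, led by Cbfa2t3, Gna14 and Ern2, had 2999 ppm with 97.1% of its 240 cells S-like or G2/M-like. Cells above the threshold were 54.6% of cluster 20 and 2.72% of cluster 13. Among all clusters the sums were highest in the progenitor-like clusters 11 (5151 ppm) and 6 (4298 ppm), both named from transit amplifying markers.

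Unnamed cluster 1 was led by the haemoglobin gene Hbb-bs and had 1360 ppm. Of its 2757 cells 2288 came from set 7, and 34.4% were above the threshold. It was kept out of every named class. Of all 4654 cells above the threshold, 48.2% were progenitor-like and 42.4% unnamed. Within these classes, 34.9% of the 6424 progenitor-like cells and 12.9% of the 15241 unnamed cells were above it.

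**Figure D5:**
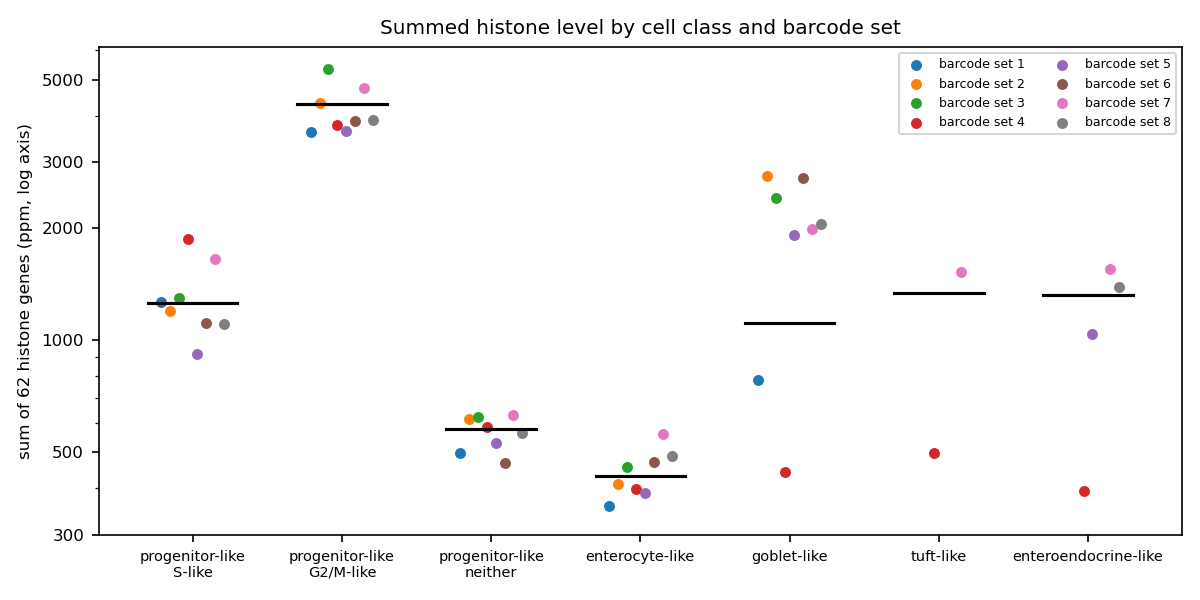
Sum of the 62 members in ppm (log axis) for each barcode set with at least 20 cells in the group (points, coloured by set) and for all cells of the group (black line). The 3 progenitor-like stages do not overlap, while goblet-like cells range from 442 to 2760 ppm and tuft-like and enteroendocrine-like cells are lowest in set 4.

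Barcode sets differed for 1 member more than for the rest. In G2/M-like progenitor-like cells Hist1h2ap was at 170, 425, 1215, 456, 312, 292.5, 1044 and 170 ppm in sets 1 to 8, a 7.14-fold range. For the 47 members at 10 ppm or more in these cells, the highest set was 1.23 to 7.14 times the lowest, with a median of 2.07, and the largest ratio other than that of Hist1h2ap was 5.49, for Hist1h3a at 17.15 ppm. Of the 1877 genes at 100 ppm or more in these cells, 8 (0.426%) had a range at least as wide as that of Hist1h2ap. Sets 3 and 7 were the highest in G2/M-like cells. The same sets were highest in cells of neither stage (60.8 and 40.1 ppm, others 2.17 to 15.8 ppm) and in enterocyte-like cells (36.4 and 28.8 ppm, others 1.97 to 7.63 ppm). Hist1h2ae was also highest in sets 3 and 7 (757 and 665 ppm in G2/M-like cells, others 318 to 433 ppm), whereas Hist1h1b was lowest in set 3 (356.5 ppm) and highest in set 8 (632 ppm). Without Hist1h2ap the sum in G2/M-like cells ranged from 3314 to 4132 ppm over sets, and it was 6.71-fold that of neither. The sets cannot be tied to samples, diets or animals here.

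Sequence shared between genes limits single members. Of 62 members, 25 had at least 50% of their 90-base transcript stretches in the transcripts of another gene, and 4 had none. For Hist1h2ap (chr13:21833026-21833507, minus strand, 1 exon) the share was 92.4%, all with Hist1h2ao (chr13:21810465-21810944, plus strand), which was listed at 1.62 ppm in G2/M-like cells. For Hist1h1e (chr13:23620629-23622558, minus strand) 22.1% of stretches were also in Hist1h2be (chr13:23583670-23621124, minus strand), whose annotated gene overlaps it. Hist1h2bc (chr13:23684199-23692908, plus strand, up to 2 exons) shared 20.2% with Hist1h2bg. Hist1h1b (chr13:21779883-21780625, minus strand, 1 exon) shared none. The share can differ at the 3′ end, from which transcripts were captured. Over the last 200 stretches of the longest annotated transcript it was 100% for Hist1h2ap, Hist1h1e, Hist1h3e and Hist1h3f, among others. It was 2% for Hist1h2ae and 0% for Hist1h2bc, Hist1h4d and Hist1h1b. How reads of shared sequence were assigned was given by no label or note read here, so levels of single members with much shared sequence are uncertain.

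Members were also grouped by how their annotated transcripts end. In 22 members the annotation ended within 100 bases of the stem-loop, and in 22 it ran 100 bases or more past it. In 11 it had no end beyond the coding region, and in 7 it had no stem-loop. The median log2 difference between S-like cells and neither was 1.13 for members ending near the stem-loop and 0.42 for those running past it, and that between G2/M-like cells and neither was 2.62 and 1.62. In enterocyte-like cells the members running past the stem-loop summed to 169 ppm and those ending near it to 49.9 ppm. The 7 without a stem-loop summed to 205 ppm, of which Hist1h2bc alone gave 190.5 ppm. Hist1h1e and Hist1h1c ran 1153 and 840 bases past the stem-loop, Hist1h4d 770, Hist1h2ae 151 and Hist1h2ap 3. The groups are a description of the annotation, not of the transcripts captured here.

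Genes of the same pathway were read from 3 lists. Replacement histones are for the most part made outside S phase or throughout the cycle, and have other genes. Of 11 in the table, 2 were called higher in S-like cells (all genes 2.49%) and 4 in G2/M-like cells (4.81%) than in neither. In both, 0 were lower (0.44% and 3.23%). H2afz, which encodes H2A.Z, was at 317 ppm in neither, 680 ppm in S-like and 1198 ppm in G2/M-like cells, and H2afx, which encodes the DNA damage mark H2A.X, at 12.5, 40.8 and 183 ppm. The linker histone gene H1f0 was at 66.6, 56.9 and 197 ppm, and Cenpa, the centromeric H3, at 15.2, 19.8 and 239 ppm. The H3.3 genes H3f3a and H3f3b were at 669 and 652 ppm in neither and 760 and 1074 ppm in G2/M-like cells, and were not called.

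Histone mRNA genes control transcription, 3′ end processing or decay of the members' mRNAs. Of 21, 4 were called higher in S-like cells (all genes 2.49%) and 0 in G2/M-like cells (4.81%) than in neither. In both, 0 were lower (0.44% and 3.23%). Slbp was at 56.4 ppm in neither, 143 ppm in S-like and 83.9 ppm in G2/M-like cells. Casp8ap2, needed for histone 3′ end processing, was at 43.3, 104 and 47.3 ppm. Ccne1 and Ccne2, cyclins that switch on histone transcription through Npat, were at 28.0 and 42.2 ppm in S-like cells and 2.27 and 8.38 ppm in neither. Npat itself was at 39.9, 59.6 and 40.6 ppm and was not called. Of the members, 34 were called higher in G2/M-like than in S-like cells. In contrast, 3 of these 21 genes (Casp8ap2, Ccne1 and Ccne2) were called lower and 0 higher (all genes 0.833% and 2.08%).

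Histone chaperones carry new histones to DNA. Of 24, 8 were called higher in S-like cells (all genes 2.49%) and 5 in G2/M-like cells (4.81%) than in neither. In both, 0 were lower (0.44% and 3.23%). Chaf1a, a subunit of the replication-coupled chaperone CAF-1, was at 13.2 ppm in neither, 70.5 ppm in S-like and 40.0 ppm in G2/M-like cells, and its partner Chaf1b at 12.7, 51.4 and 17.6 ppm. Asf1b was at 4.69, 37.0 and 44.0 ppm, and Nasp at 117, 273 and 194 ppm. Hjurp, the chaperone of Cenpa, was at 68.6, 124 and 194 ppm, and Anp32e, which removes H2A.Z, at 56.6, 90.6 and 195 ppm. Against neither, both were called in G2/M-like and not in S-like cells. Of the 8 called in S-like cells, Chaf1a, Chaf1b, Hat1, Mms22l, Nasp and Tonsl were highest in bin 4 of the ordered cells, ahead of the members. The others, Asf1b and Dnajc9, were highest in bin 6, as were 20 members. Hjurp and Anp32e were highest in bins 7 and 8.

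Over the 22 clusters the genes whose log2 level was most like that of the summed members, leaving out members and scoring genes, were Rad21 (Pearson r 0.95), Cdkn1b, Plk1, Ube2s, H2afx, Tuba1b, Spc25, Hnrnpul1, Hp1bp3 and Ccnb1 (0.889). The clusters share libraries and differ in depth, so these values describe likeness only. Among the members, the likeness to the sum of the others was lowest for Hist1h2bc (-0.55), Hist2h3c2 (-0.25), Hist2h3c1 (0.22), Hist1h1c (0.39) and Hist3h2a (0.54). Of these, both Hist2h3c genes lay under 5 ppm in every cluster.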

How the data were processed

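Single-cell RNA libraries of 8 diet samples were analysed from the 1 deposited table of 20090 genes. The deposited values are whole numbers treated as a score: per the submitters' processing notes the authors used Cell Ranger and mm10, and neither text nor header describes a later rescaling. They were not taken as raw counts, since the value 2 was more frequent than 1 in 25.3% of cells. The table has no map from cells to samples, so it was treated as 1 sample, with no p-value.

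A cell needed 500 detected genes and no more than 25% mitochondrial values, which removed 2 cells. The doublet caller marked 52 cells (0.187%), under the 0.5% at which it counts as working. They were left out, which gave 27827 cells, and other doublets may remain. Cells were scaled to 10000 and clustered without the members (2000 variable genes, 30 components, 15 neighbours, resolution 1). A non-epithelial name was withheld where Epcam reached 100 ppm, a limit set after the data were seen. Tools were Python 3.11.15, scanpy 1.11.5, leidenalg 0.10.2, numpy 2.4.6, scipy 1.17.1, pandas 2.3.3 and matplotlib 3.10.9. The calculations were tested on simulated data. Members named with values were those called, the 5 highest in S-like cells and those at least as high in enterocyte-like cells. The members and lists were chosen with earlier results of these data known. Alternatives changed filters, scaling, clustering, scoring genes, margins, bins and barcode sets.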

Additional observations from a re-analysis of the deposited data

Results flagged for a closer look

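Among 48 groups of barcode-set values that were examined, 1 had a set far from the others. Hist3h2a, a replication-dependent H2A gene on chromosome 11, was at 11.68 ppm in the enterocyte-like cells of barcode set 8, and the next set was at 7.632 ppm. Chance alone marks about 1 in 20 such groups.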

How the results depend on the processing

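Of 510 values recomputed under alternatives, 487 stayed within the limits set for them and 23 moved. No log2 difference of a sum, or of a single member called in the main run, changed sign. Counts, positions along the order and members not called there were not examined for sign. Without the minimum level of 10 ppm, 25 members were called higher in S-like cells than in neither and 52 in progenitor-like than in enterocyte-like cells (all genes 1.75% and 22.3%). With called doublets kept and the cells clustered again, the log2 difference of the sum between S-like cells and neither was 1.52 (main value 1.12). That setting also changed the groups, to 2128 S-like cells (main 2478) and 1055 in neither (main 1130). At clustering resolution 2 the difference between S-like cells and neither was 1.5. There, that between G2/M-like and S-like cells was 1.40 (1.77), and that between progenitor-like and enterocyte-like cells was 2.72 (2.51). With only the odd scoring genes, 5 members and 1 replacement histone gene were called higher in S-like cells (all genes 1.84%). Over all cells in place of progenitor-like cells, the difference of the sum was 2.23 between G2/M-like cells and neither (2.90) and 1.16 between G2/M-like and S-like cells, with 19 members higher in the former (all genes 1.11%). With 5 bins the highest sum lay at 70% of the order, against 65%. Each position is the middle of the highest bin, and with 5 bins no middle lies at 65%. The causes of the other shifts were not tested. Leaving out each barcode set in turn moved no stage, class or order result past its limit, while the goblet-like and tuft-like sums became 2088 ppm without set 4 and 625 ppm without set 7. Leaving single sets out of the secretory sums, adding cluster 7 to the progenitor-like cells, leaving out shared barcodes and ordering only cells with a score of at least 0.1 were chosen after seeing the data. No paired analysis was possible because the cells carry no sample labels. Members near 10 ppm are limited by low values.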
